A study of Mus musculus with 11 samples.

Results

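The heat shock chaperones are proteins that hold, fold or refold other proteins, and 10 genes of this class were followed in the colon of mice lacking tumour necrosis factor receptor 1 (TNFR1, encoded by Tnfrsf1a). The genes were Hspa1a, Hspa1b, Dnajb1, Hsph1, Hsp90aa1 and Hspb1, which are strongly heat-inducible, and Hspa8, Hsp90ab1, Hspd1 and Hspe1, which are abundant without stress and are grouped here as constitutive. They are 10 of the 35683 genes in the deposited table, with 48 of its 113193 transcripts. They were chosen by name with the difference between genotypes already known, so that difference is given below as a description and without a test. All 10 genes reached an abundance of at least 1 in at least 5 libraries, the condition for entering the comparison of all genes, as did 26 of the 48 transcripts.

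RNA came from the full-thickness colon of 2-week-old mice, 6 of genotype Tnfr1-/- and 5 wild type (WT), with 1 library per mouse. No treatment is named in the labels, and strain background, sex, litter, and the cells in which the receptor is lost are not stated in the sources used here. Whole colon wall holds epithelium, muscle, nerve, vessel and immune cells together, so fewer cells of a type and less RNA per cell cannot be told apart. Values are called abundance here: TPM (a read share corrected for transcript length) scaled by 1 size factor per library, summed over the transcripts of a gene, and therefore already per length. Differences are means of log2(abundance + 0.5), Tnfr1-/- minus WT, a scale on which the change of a scarce transcript looks smaller than it is.

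Heat shock protein 70 (HSP70) binds exposed hydrophobic stretches of client proteins and releases them as it hydrolyses ATP. J-domain proteins such as DNAJB1 deliver clients and stimulate that hydrolysis, and HSP110 proteins such as HSPH1 exchange the nucleotide. HSP90 takes over partly folded clients, small heat shock proteins hold unfolded ones, and HSPD1 with its lid HSPE1 folds proteins inside mitochondria. Heat shock factor 1 (HSF1) switches on the inducible genes by binding heat shock elements, which are alternating copies of GAA and its complement TTC.

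Hspa1a and Hspa1b encode almost the same protein and lie 9.952 kb apart on chromosome 17, on the minus strand, at chr17:34969190-34972156 and chr17:34956436-34959238 (GRCm38). The 250 bases before the start of each are printed because they carry the same heat shock element letters. They are RefSeq sequences on GRCm38.p6, from chr17:34972157-34972406 and chr17:34959239-34959488, minus strand, 5′ to 3′, and capitals mark a match of GAANNTTC or TTCNNGAA.
Hspa1a: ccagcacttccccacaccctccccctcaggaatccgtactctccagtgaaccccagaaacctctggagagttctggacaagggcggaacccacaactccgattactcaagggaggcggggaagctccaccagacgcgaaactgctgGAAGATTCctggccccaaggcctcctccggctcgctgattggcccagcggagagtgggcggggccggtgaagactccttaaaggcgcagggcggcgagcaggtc
Hspa1b: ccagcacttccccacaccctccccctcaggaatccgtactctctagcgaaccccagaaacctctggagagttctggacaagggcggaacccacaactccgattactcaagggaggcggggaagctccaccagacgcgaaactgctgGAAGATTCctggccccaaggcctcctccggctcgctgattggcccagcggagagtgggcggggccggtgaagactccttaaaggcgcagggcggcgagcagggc
These stretches differed at 3 positions, C44T, T47C and T249G, counted from 1 at the 5′ end, with the Hspa1a base first. Each held 1 match, GAAGATTC, that begins at position -104 relative to the start. Such a match of 2 facing units, on either strand, occurred in 15.1% of 32851 promoters of 250 bases before to 50 bases after a start. The longer match of 3 alternating units, GAANNTTCNNGAA or TTCNNGAANNTTC, which contains the shorter one, occurred in 0.603% of promoters and in neither HSP70 gene.

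RefSeq promoters were matched for 7 of the 10 genes. Hspd1 and Hspe1 lie head to head on chromosome 1. A stretch before the Hspe1 start, which also lies before 1 of the 2 RefSeq starts of Hspd1, is printed because it holds 2 overlapping matches of 3 alternating units (chr1:55088053-55088082, plus strand, matches in capitals).
Hspe1: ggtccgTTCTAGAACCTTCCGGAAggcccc
Hspb1 held 2 matches of the shorter kind before its start on chromosome 5 (chr5:135887669-135887918, plus strand), shown in capitals for comparison with the HSP70 genes.
Hspb1: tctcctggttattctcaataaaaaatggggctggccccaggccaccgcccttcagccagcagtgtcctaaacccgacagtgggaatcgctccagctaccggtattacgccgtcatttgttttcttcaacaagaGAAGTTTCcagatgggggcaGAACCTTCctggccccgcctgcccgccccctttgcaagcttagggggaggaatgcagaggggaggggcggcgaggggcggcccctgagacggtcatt
Hsph1 held the longer match TTCTGGAAAGTTC just after its start, and neither kind was found within the windows of the 2 Dnajb1 starts. A match is a run of letters and says nothing about binding of HSF1 in these colons.

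The 2 stress-inducible HSP70 genes showed the widest difference of the 10. Hspa1a was at 11.4, 22.6, 39.1, 26.3, 30.9 and 13.0 in Tnfr1-/- colons 1 to 6, against 8.75, 9.38, 9.49, 11.3 and 8.33 in WT colons 1 to 5. All 6 Tnfr1-/- colons lay above all 5 WT colons, although colons 1 and 6 did so narrowly. Means were 23.9 ± 10.6 in Tnfr1-/- colons and 9.45 ± 1.14 in WT colons (SD, n = 6 and 5), a log2 difference of 1.17 (SE 0.286).

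Hspa1b was at 32.9, 47.0, 80.7, 62.5, 64.8 and 37.4 in Tnfr1-/- colons, against 23.4, 21.2, 21.7, 28.0 and 19.7 in WT colons. The groups again did not overlap, and colon 3 was the highest and colon 1 the lowest of the Tnfr1-/- group for both genes. The log2 difference was 1.17 (SE 0.214), with means of 54.3 ± 18.3 in Tnfr1-/- colons and 22.8 ± 3.19 in WT colons. The authors' deposited table lists log2 ratios of group means of 1.34 for Hspa1a and 1.25 for Hspa1b.

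How reads were shared between these near-identical genes is uncertain. Of the 75-base windows, the read length, of the Hspa1a transcript, 52.7% also occur in Hspa1b and 5.88% in the testis-enriched relative Hspa1l, so many reads are split by the quantifier. The ratio of Hspa1b to Hspa1a abundance was 2.40 ± 0.395 in Tnfr1-/- colons and 2.41 ± 0.171 in WT colons. Their sum does not depend on the split between them: it averaged 78.1 ± 28.8 in Tnfr1-/- colons and 32.2 ± 4.22 in WT colons, a log2 difference of 1.19 (SE 0.235).

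Among all 15079 genes tested, the non-overlapping, higher pattern of Hspa1a and Hspa1b occurred in 0.723%, and it was known for both genes when the 10 were chosen. At a limma adjusted p under 0.05, 0.00663% of genes were called, which is Tnfrsf1a alone, and none of the 10 chaperone genes. Tnfrsf1a averaged 22.4 ± 3.54 in Tnfr1-/- colons and 67.1 ± 5.04 in WT colons (log2 difference -1.57, adjusted p = 8.5e-05). Of the 10 chaperone genes 9 had a higher mean in Tnfr1-/- colons and 1 a lower mean, with a median log2 difference of 0.30 against -0.01 over all genes tested.

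**Figure D1:**
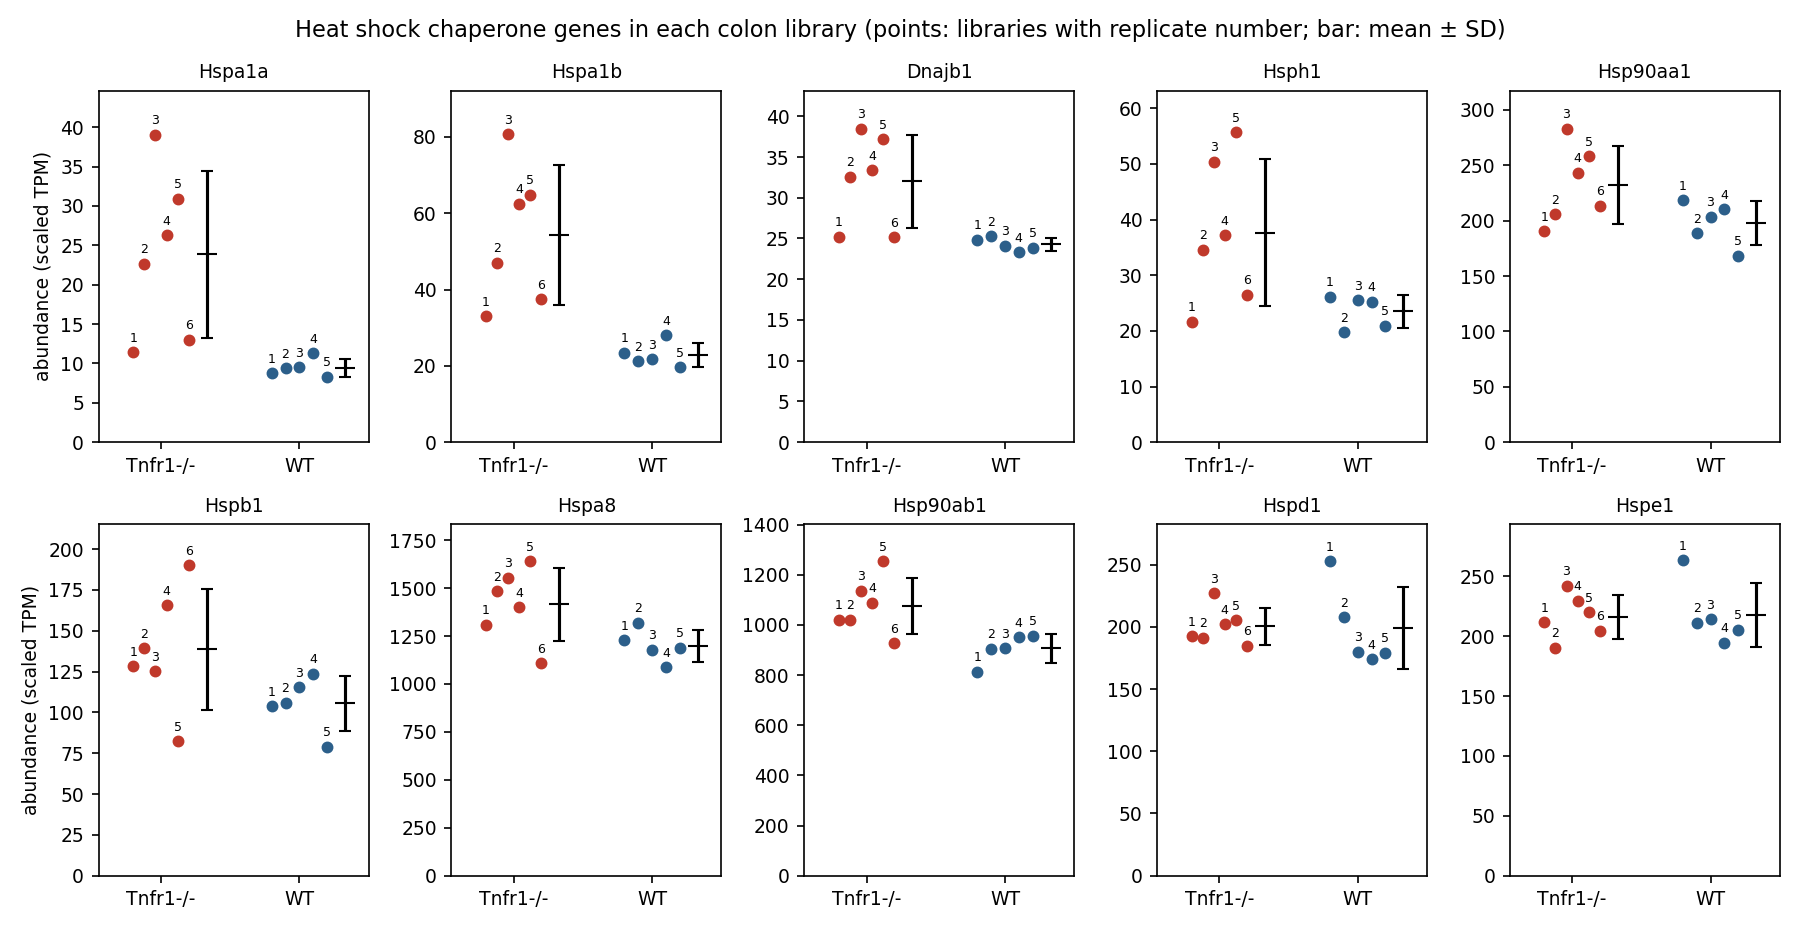
Abundance (TPM scaled by a library size factor, linear axes from 0) of the 10 heat shock chaperone genes in 6 Tnfr1-/- colons (red, left) and 5 WT colons (blue, right), 1 point per library with its replicate number and bars for mean ± SD. For Hspa1a and Hspa1b all red points lie above all blue points, and for Hspd1 and Hspe1 the groups lie at the same height.

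Dnajb1, the J-domain partner of inducible HSP70, was at 25.2, 32.6, 38.5, 33.4, 37.1 and 25.2 in Tnfr1-/- colons, against 24.8, 25.3, 24.1, 23.3 and 23.9 in WT colons. The WT colons were nearly uniform, with a coefficient of variation of 3.19%, against 17.8% in Tnfr1-/- colons. Tnfr1-/- colons 1 and 6, the lowest for HSP70, were inside the WT range, and the other 4 were above it. The log2 difference was 0.37 (SE 0.112).

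Hsph1, the HSP110 exchange factor, was at 21.6, 34.6, 50.4, 37.1, 55.7 and 26.5 in Tnfr1-/- colons, against 26.1, 19.8, 25.6, 25.2 and 20.9 in WT colons. Of the Tnfr1-/- colons 5 exceeded the highest WT colon, and colon 1 fell inside the WT range. The means were 37.6 ± 13.2 in Tnfr1-/- colons and 23.5 ± 2.95 in WT colons, a log2 difference of 0.60 (SE 0.221). No 75-base window of the leading Dnajb1 or Hsph1 transcript was found in another gene. That transcript holds 98.8% of the abundance of Dnajb1 but 37.8% of that of Hsph1, and the other transcripts were not searched.

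Hsp90aa1, the heat-inducible cytosolic HSP90, was at 191, 206, 283, 243, 258 and 213 in Tnfr1-/- colons, against 219, 189, 203, 211 and 168 in WT colons. The groups overlapped, with 3 Tnfr1-/- colons above the highest WT colon, and the log2 difference was 0.22 (SE 0.107). Its constitutive sister Hsp90ab1 was at 1021, 1021, 1136, 1088, 1253 and 927 in Tnfr1-/- colons, against 813, 905, 908, 951 and 957 in WT colons, a log2 difference of 0.24 (SE 0.077). Thus, summed over their transcripts, the inducible and the constitutive HSP90 differed by nearly the same amount. The Hsp90aa1 to Hsp90ab1 ratio was 0.216 ± 0.022 in Tnfr1-/- colons and 0.220 ± 0.034 in WT colons. In the leading coding transcript alone the log2 difference was 0.23 (SE 0.103) for Hsp90aa1 and 0.17 (SE 0.065) for Hsp90ab1.

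Hspa8, the constitutive HSP70 of cytosol and nucleus, was the most abundant of the 10, at 1308, 1485, 1554, 1401, 1640 and 1108 in Tnfr1-/- colons, against 1227, 1319, 1179, 1089 and 1188 in WT colons. Tnfr1-/- colon 6 was below 4 of the WT colons, while 4 Tnfr1-/- colons were above all of them. The log2 difference was 0.23 (SE 0.096). Inducible HSP70 (Hspa1a plus Hspa1b) amounted to 5.42% ± 1.53 of Hspa8 in Tnfr1-/- colons and 2.71% ± 0.523 of Hspa8 in WT colons.

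Hspb1 (HSP25), a small heat shock protein that is also abundant in muscle and stratified epithelium, was at 128, 139, 125, 166, 82.5 and 190 in Tnfr1-/- colons, against 104, 106, 116, 124 and 78.9 in WT colons. The log2 difference was 0.36 (SE 0.191). The order of colons departed from that of HSP70: colon 6 was the highest Tnfr1-/- colon and colon 5 the lowest. The summed abundance of 8 squamous epithelium markers was likewise highest in Tnfr1-/- colon 6 (1418) and lowest in Tnfr1-/- colon 5 (351). Among WT colons it was lowest in colon 4 (524), which had the most Hspb1 of that group. Smooth muscle markers were highest in Tnfr1-/- colon 6 (8896) and WT colon 4 (12054), but lowest in colon 2 of each genotype. The part of these cells in the Hspb1 values was not tested. The squamous sum spanned 351 to 1418 in Tnfr1-/- colons and 524 to 765 in WT colons, with no marker at 0 in all libraries.

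The mitochondrial pair did not separate the genotypes. Hspd1, the mitochondrial HSP60 chaperonin, was at 193, 191, 227, 202, 205 and 185 in Tnfr1-/- colons, against 253, 208, 180, 174 and 179 in WT colons, a log2 difference of 0.02 (SE 0.096). Hspe1, its HSP10 lid, was at 211, 190, 242, 230, 220 and 204 in Tnfr1-/- colons, against 263, 211, 214, 195 and 206 in WT colons, a log2 difference of -0.01 (SE 0.083). WT colon 1 was the highest of all 11 for both genes, whose starts lie close together. Their ratio, Hspd1 over Hspe1, varied little, at 0.928 ± 0.043 in Tnfr1-/- colons and 0.910 ± 0.060 in WT colons.

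**Figure D2:**
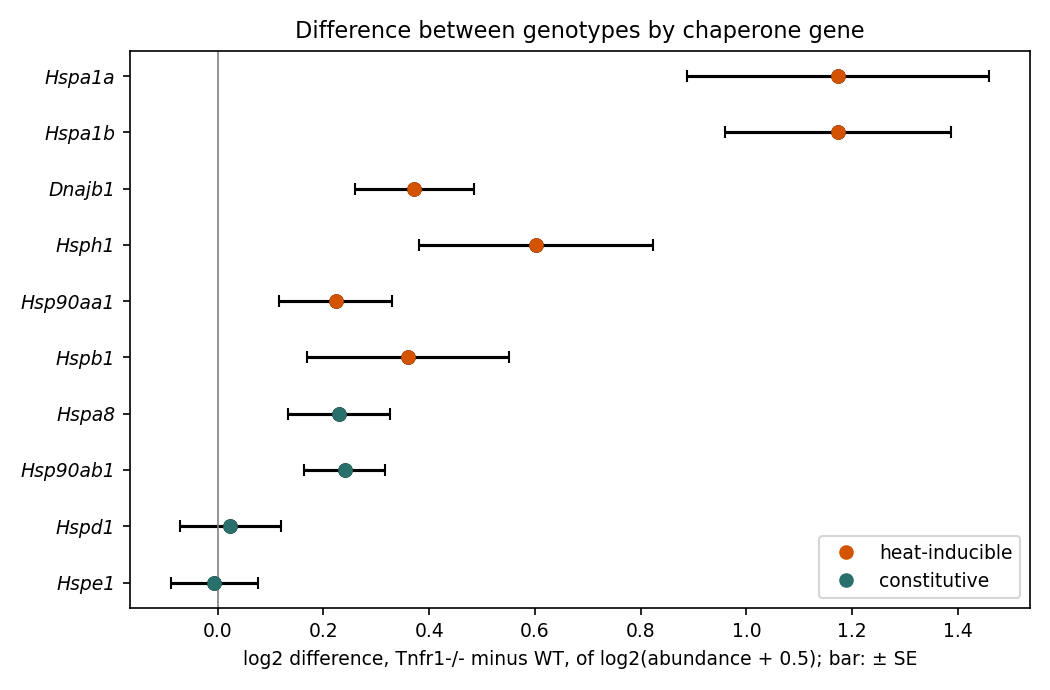
Log2 difference of abundance + 0.5, Tnfr1-/- minus WT, for each gene (points; bars are ± 1 SE from the fit of all genes; orange, heat-inducible; green, constitutive). Hspa1a and Hspa1b lie at 1.17, Hsph1 at 0.60, and Hspd1 and Hspe1 beside 0.

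The mean log2 abundance of the 6 inducible genes was 5.88 in Tnfr1-/- colons and 5.23 in WT colons, and that of the 4 constitutive genes was 8.98 in Tnfr1-/- colons and 8.86 in WT colons. Inducible minus constitutive was therefore -3.10 ± 0.235 in Tnfr1-/- colons and -3.63 ± 0.170 in WT colons, a difference of 0.53, with 5 of 6 Tnfr1-/- colons above every WT colon. Without Hspa1a and Hspa1b the difference was 0.27. The constitutive mean joins unlike genes: log2 differences were 0.23 for Hspa8 and 0.24 for Hsp90ab1, but 0.02 for Hspd1 and -0.01 for Hspe1. Inducible Hsp90aa1, at 0.22, was near the first 2 of these. This contrast was part of how the genes were chosen, so it is a description. Over all 11 colons, both genotypes pooled, the mean abundance ran in the order Hspa1a 17.3, Dnajb1 28.5, Hsph1 31.2, Hspa1b 40.0, Hspb1 124, Hspd1 200, Hsp90aa1 217, Hspe1 217, Hsp90ab1 998 and Hspa8 1318. The order of the middle genes differed by genotype: means were Dnajb1 32.0, Hsph1 37.6 and Hspa1b 54.3 in Tnfr1-/- colons, and Hspa1b 22.8, Hsph1 23.5 and Dnajb1 24.3 in WT colons. Ranges of neighbours in the pooled order overlapped except where Hspe1 gives way to Hsp90ab1, and where Hspa1b, at most 80.7, meets Hspb1, at least 78.9, they did so only just.

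Reads shared with other gene copies also touch the abundant genes. A reference coding transcript shares 68.0% of its 75-base windows with 9 predicted genes for Hspa8, 59.5% with 3 for Hsp90aa1, 57.7% with Hsp25-ps1 for Hspb1 and 33.7% with 4 genes for Hspd1, so their levels depend on how reads were divided. For Hsp90ab1 this share was 0.736% and for Hspe1 0.571%.

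Transcripts annotated as retained-intron were also mostly higher in Tnfr1-/- colons. The annotation lists 14 retained-intron transcripts in 5 of the genes (Hspa8, Hsp90aa1, Hsp90ab1, Hsph1 and Hspe1), all above 0 in at least 1 library and 8 of them tested. A whole intron of the gene's leading or reference coding transcript lay inside all of those of Hsp90ab1 but only some of those of Hspa8 and Hsp90aa1. None of Hsph1 or Hspe1 held one, so there the name rests on the annotation alone. Of these 14, 13 had a higher mean in Tnfr1-/- colons and 1 a lower one, while 57.0% of the 18427 retained-intron transcripts above 0 in any gene had a higher mean in Tnfr1-/- colons. In 2 of the 14 the groups did not overlap, which over all genes occurred in 0.559% of such transcripts. Being higher was not particular to this kind of transcript. Among tested chaperone transcripts, the log2 difference was above 0 in 8 of 8 retained-intron and 15 of 17 protein-coding ones. The median was 0.82 for the retained-intron and 0.30 for the protein-coding ones. Groups did not overlap in 1 of these 8 and 2 of these 17. Of the 14, 5 were higher in Tnfr1-/- colons while under 1 in all WT libraries. Retained-intron transcripts of the Hsp90ab1 gene were among the values that chose the genes, so these counts are descriptions.

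The clearest was ENSMUST00000145205.1 of Hsp90ab1, which covers intron 8 of the 10 introns of the leading transcript. That intron is printed because its reads separate this transcript from spliced RNA (chr17:45569127-45569239, GRCm38, minus strand, taken from the GENCODE M21 transcript, with the splice site letters GT and AG in capitals).
Hsp90ab1 intron 8: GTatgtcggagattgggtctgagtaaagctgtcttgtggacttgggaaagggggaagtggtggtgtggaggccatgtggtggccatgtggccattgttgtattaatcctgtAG
ENSMUST00000145205.1 was at 4.63, 7.22, 6.13, 7.58, 3.84 and 5.54 in Tnfr1-/- colons, against 2.52, 2.34, 2.12, 2.38 and 3.06 in WT colons. The lowest Tnfr1-/- colon was above the highest WT colon, and the log2 difference was 1.06 (SE 0.166). Among all retained-intron transcripts tested, 0.857% did not overlap in this direction. The leading spliced transcript of Hsp90ab1, ENSMUST00000024739.13, averaged 782 ± 72.3 in Tnfr1-/- colons and 693 ± 12.8 in WT colons, a log2 difference of 0.17.

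Further intron-keeping transcripts of Hsp90ab1 were low. ENSMUST00000146770.7, which covers intron 5, averaged 1.56 ± 0.362 in Tnfr1-/- colons and 0.554 ± 0.456 in WT colons, and ENSMUST00000151306.1, which covers intron 2, averaged 1.08 ± 0.491 in Tnfr1-/- colons and 0.254 ± 0.209 in WT colons. ENSMUST00000146770.7 passed the filter on low values through its Tnfr1-/- values, as only 1 WT value (1.07) reached 1, and ENSMUST00000151306.1 was not tested. A short isoform of the same gene, ENSMUST00000166469.7, averaged 90.7 ± 40.5 in Tnfr1-/- colons and 53.4 ± 39.0 in WT colons, a spread as wide as the difference.

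In Hspa8, ENSMUST00000149936.1 covers introns 2, 5, 6, 7 and 8 of 8. It was at 6.06, 7.99, 6.67, 7.10, 6.67 and 4.84 in Tnfr1-/- colons, against 3.87, 6.22, 2.54, 1.51 and 2.96 in WT colons, a log2 difference of 0.95 (SE 0.259). WT colon 2 was the one WT colon inside the Tnfr1-/- range. In Hsph1, ENSMUST00000201877.1 averaged 11.8 ± 4.16 in Tnfr1-/- colons and 6.82 ± 1.08 in WT colons, and ENSMUST00000201431.3, the second transcript without overlap, averaged 0.764 ± 0.377 in Tnfr1-/- colons and 0.240 ± 0.101 in WT colons. In Hsp90aa1, ENSMUST00000134967.1 was listed at 0 in 3 of 5 WT colons, with values of 1.23, 2.18, 8.17, 2.68, 3.85 and 1.87 in Tnfr1-/- colons, against 0, 1.31, 0.939, 0 and 0 in WT colons. It passed the filter on low values through its Tnfr1-/- values, as only the WT value of 1.31 reached 1. No whole intron of the leading transcript lies inside these Hsph1 and Hsp90aa1 transcripts.

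All 14 retained-intron transcripts together summed to between 217 and 365 in Tnfr1-/- colons and between 196 and 261 in WT colons, and the groups overlapped. Without the 2 most abundant, ENSMUST00000127699.1 of Hspa8 and ENSMUST00000129005.1 of Hsp90aa1, which were left out after their values were seen, the sum reached 24.6, 38.4, 47.5, 37.0, 41.0 and 26.3 in Tnfr1-/- colons, against 15.6, 21.2, 17.1, 13.3 and 15.2 in WT colons. This smaller sum did not overlap between genotypes, and its lowest and highest Tnfr1-/- colons were again 1 and 3. Over all genes, retained-intron transcripts held 5.24% ± 0.245 of the abundance in Tnfr1-/- colons and 5.24% ± 0.082 in WT colons. ENSMUST00000127699.1 (456 bases) and ENSMUST00000129005.1 (325 bases) are short and have a small effective length, which raises their abundance per read. Others of the 14 are longer, up to 4764 bases for ENSMUST00000201431.3.

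**Figure D3:**
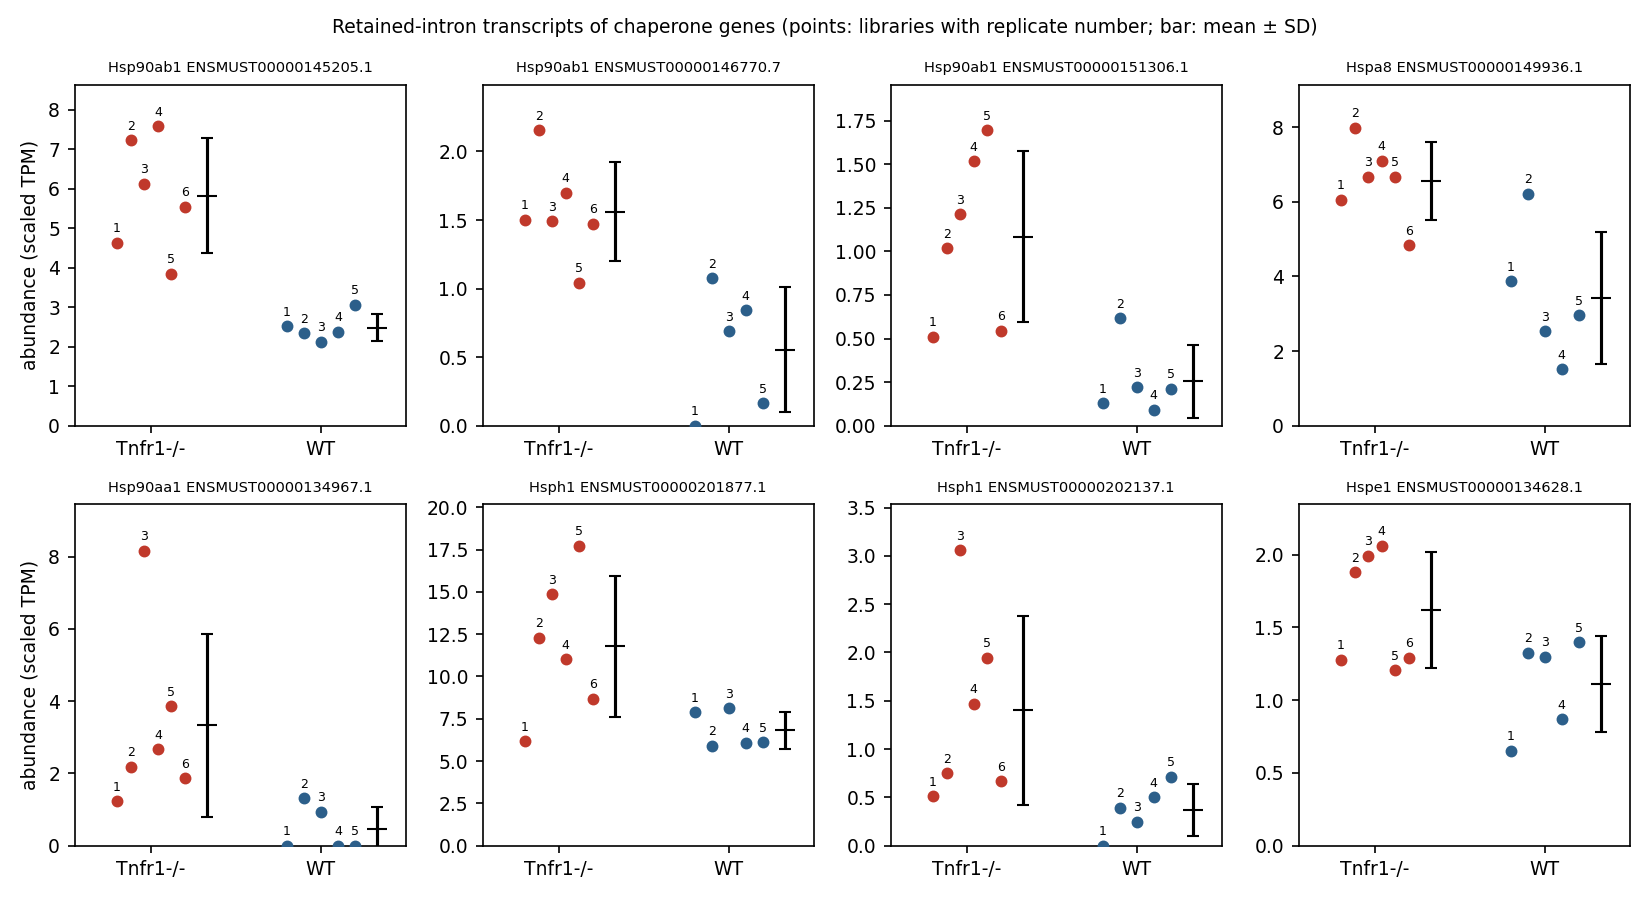
Abundance of 8 retained-intron transcripts of Hsp90ab1, Hspa8, Hsp90aa1, Hsph1 and Hspe1 in 6 Tnfr1-/- colons (red, left) and 5 WT colons (blue, right), with replicate numbers and bars for mean ± SD, which are drawn only down to the axis at 0. For ENSMUST00000145205.1 of Hsp90ab1 all red points (3.84 to 7.58) lie above all blue points (2.12 to 3.06), and the other panels overlap.

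The colons of 1 genotype differed from each other in HSP70, which gives a comparison that does not use the genotype difference. Each gene's log2 value was taken relative to its genotype mean and correlated with summed Hspa1a and Hspa1b over the 11 colons, with an exact permutation test over the 86400 orders within genotypes and Benjamini-Hochberg adjustment over 8 genes. Hsph1 (r = 0.91, rho = 0.82), Dnajb1 (r = 0.90, rho = 0.49) and Hsp90aa1 (r = 0.87, rho = 0.93) followed HSP70. Their exact p were 0.00365 for Hsph1, 0.00853 for Dnajb1 and 0.00231 for Hsp90aa1, or 0.0146, 0.0227 and 0.0146 after adjustment. Spearman's rho gave adjusted exact p of 0.0352 for Hsph1, 0.336 for Dnajb1 and 0.00722 for Hsp90aa1.

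The relation rests in part on 2 colons. Without Tnfr1-/- colons 3 and 1, the farthest from the median of HSP70, r was 0.83 for Hsph1, 0.79 for Dnajb1 and 0.72 for Hsp90aa1 over 9 colons, and no adjusted exact p passed 0.05 (0.171, 0.180 and 0.171). Within the 6 Tnfr1-/- colons r was 0.94 for Hsph1, 0.97 for Dnajb1 and 0.94 for Hsp90aa1. Within the 5 WT colons r was 0.57 for Hsph1, -0.48 for Dnajb1 and 0.70 for Hsp90aa1. For Dnajb1 the sign thus reversed: WT colon 4 had the most HSP70 of its group (39.3) and the least Dnajb1 (23.3). For Hspb1 the WT colons ran with HSP70 at both ends, with the most in WT colon 4 (124) and the least in WT colon 5 (78.9, HSP70 28.0). No test was made within a genotype.

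The remaining genes passed no test of this kind. For Hsp90ab1 r was 0.65 (rho = 0.38, adjusted exact p = 0.149), for Hspa8 0.62 (rho = 0.35, adjusted exact p = 0.190), for Hspe1 0.37 (rho = 0.45, adjusted exact p = 0.273) and for Hspd1 0.35 (rho = 0.49, adjusted exact p = 0.190). Hspb1, although heat-inducible, had r = -0.25 (rho = -0.09, adjusted exact p = 0.588). Within the 6 Tnfr1-/- colons r was 0.77 for Hsp90ab1, 0.78 for Hspa8, 0.67 for Hspe1, 0.87 for Hspd1 and -0.42 for Hspb1. Within the 5 WT colons r was 0.06 for Hsp90ab1, -0.65 for Hspa8, -0.22 for Hspe1, -0.15 for Hspd1 and 0.80 for Hspb1. The pooled r leans on the Tnfr1-/- colons, where HSP70 varied more (coefficient of variation 36.8%, against 13.1% in WT colons), and the ranks below use it. When the 15079 tested genes were ranked by this r, Hsph1 stood at rank 4, Dnajb1 at 5 and Hsp90aa1 at 9, Hsp90ab1 at 164, Hspa8 at 228, Hspe1 at 1694, Hspd1 at 1881 and Hspb1 at 12007.

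**Figure D4:**
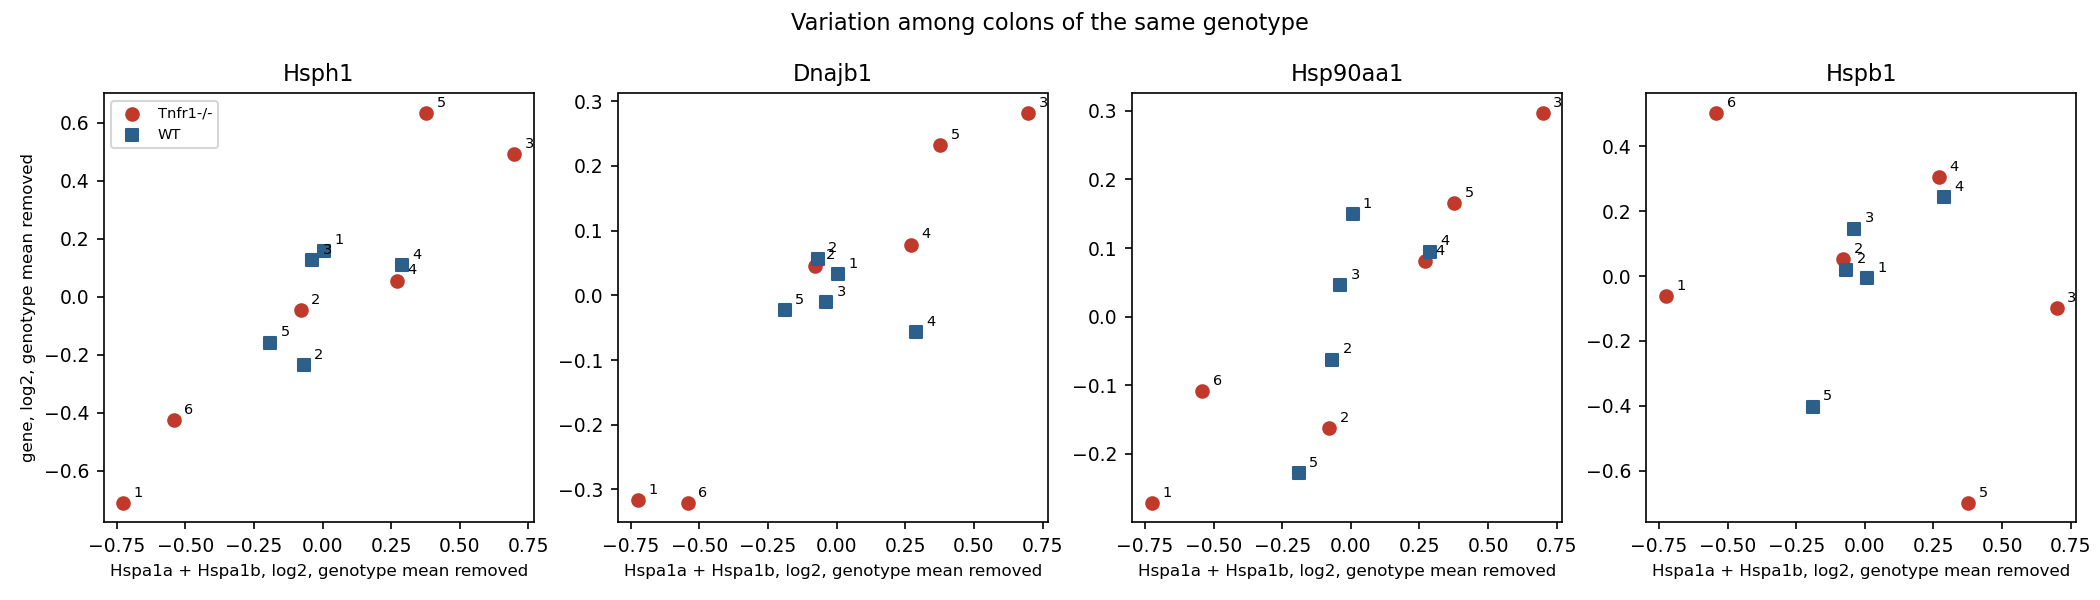
Log2 abundance of Hsph1, Dnajb1, Hsp90aa1 and Hspb1 (vertical) against that of Hspa1a plus Hspa1b (horizontal), each minus its genotype mean, for 6 Tnfr1-/- colons (red circles) and 5 WT colons (blue squares) with replicate numbers. Hsph1 (r = 0.91), Dnajb1 (r = 0.90) and Hsp90aa1 (r = 0.87) rise with HSP70, with Tnfr1-/- colons 1 and 3 at the ends, and Hspb1 (r = -0.25) does not, while among the WT squares Dnajb1 is lowest in colon 4, which has the most HSP70.

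Among other genes of known name with a mean abundance of at least 5, the 6 that varied most like HSP70 over the 11 colons were Mgme1 (r = 0.89), a mitochondrial DNA exonuclease, Dnaja1 (r = 0.87), a heat-inducible J-domain protein, Slc25a26 (r = 0.86), the mitochondrial carrier of S-adenosylmethionine, Smcr8 (r = 0.85), a partner of the C9orf72 protein, Nfya (r = 0.84), a subunit of the CCAAT-binding factor, and Wdr82 (r = 0.84), a subunit of a histone methyltransferase complex. They were taken from 10707 genes by rank and carry no test. Of 13 HSP90 cochaperones, 7 were in the tenth of genes most like HSP70 (Stip1, Chordc1, Ahsa1, Ahsa2, Ppid, Fkbp4 and Cdc37), as were 8 of 18 other HSF1-dependent genes, 4 of them the same genes (Stip1, Chordc1, Ahsa1 and Fkbp4), and 6 of 19 endoplasmic reticulum genes (Ddit3, Dnajb9, Canx, Hyou1, Hspa5 and Pdia4), where 10% is the share of all genes by construction. Of 18 immediate early genes 1 was (Jun), of 21 J-domain genes 1 was (Dnaja1), of 16 mitochondrial chaperones and proteases 1 was (Grpel2), and of 6 small heat shock proteins none was. In between were 2 of 8 HSP70 and HSP110 relatives and 2 of 13 CCT and prefoldin genes. So were 1 of 9 HSP70 exchange factors and cochaperones, and 1 of 3 tested heat shock factors and their binding protein.

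The wider chaperone network gave no call between genotypes. Of 135 genes in 11 lists, 132 were tested and 0 passed at a limma adjusted p under 0.05, while 8 were higher and 6 lower in Tnfr1-/- colons at an unadjusted p under 0.05, where 4.2% of all genes were higher and 5.17% lower. The smallest adjusted p, 0.307, belonged to Dnajb2, a J-domain protein, at 24.0 ± 2.55 in Tnfr1-/- colons and 19.5 ± 0.564 in WT colons. Dnaja4, another J-domain protein, averaged 6.00 ± 1.30 in Tnfr1-/- colons and 4.19 ± 0.536 in WT colons (limma adjusted p = 0.384), and neither gene overlapped between genotypes, as in 0.723% of all genes in this direction and 0.769% in the other. Dnaja1 averaged 129 ± 22.3 in Tnfr1-/- colons and 103 ± 4.56 in WT colons (limma adjusted p = 0.448). Over the 21 J-domain genes the median log2 difference was 0.01.

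The HSP90 cochaperones had 9 of 13 genes with a higher mean in Tnfr1-/- colons and a median log2 difference of 0.07. That median was 0.14 without WT colon 1 and 0.04 without Tnfr1-/- colon 4, the highest and lowest over the settings tried. Ahsa2, an activator of HSP90, averaged 29.2 ± 3.50 in Tnfr1-/- colons and 23.9 ± 2.25 in WT colons (limma adjusted p = 0.407), and Stip1, which links HSP70 to HSP90, averaged 58.6 ± 5.02 in Tnfr1-/- colons and 52.1 ± 3.33 in WT colons (limma adjusted p = 0.491). Aarsd1 went the other way without overlap, at 15.1 ± 1.21 in Tnfr1-/- colons and 18.4 ± 1.81 in WT colons (limma adjusted p = 0.339). Of the 9 HSP70 exchange factors and cochaperones 3 had a higher mean and 6 a lower one (median -0.02). Among them St13, which binds HSP70, averaged 84.8 ± 10.9 in Tnfr1-/- colons and 73.2 ± 5.01 in WT colons, Bag3, a heat-inducible exchange factor, averaged 33.9 ± 5.04 in Tnfr1-/- colons and 29.9 ± 4.18 in WT colons, and Stub1, a ubiquitin ligase that marks HSP70 clients, averaged 63.7 ± 1.12 in Tnfr1-/- colons and 69.6 ± 3.62 in WT colons, with limma adjusted p of 0.504, 0.670 and 0.404.

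The 18 other HSF1-dependent genes had 15 higher means and 3 lower ones, with a median log2 difference of 0.11. Dedd2 averaged 18.8 ± 2.68 in Tnfr1-/- colons and 15.7 ± 3.05 in WT colons (limma adjusted p = 0.573). All 6 small heat shock proteins had a higher mean (median 0.16), but that median was 0.02 without WT colon 2, 0.03 without Tnfr1-/- colon 2 and -0.05 without both WT colons 1 and 2. Among them were Hspb8 at 56.5 ± 13.4 in Tnfr1-/- colons and 45.2 ± 6.45 in WT colons, Cryab at 90.3 ± 18.9 in Tnfr1-/- colons and 79.3 ± 18.2 in WT colons, and Hspb3 at 2.13 ± 2.25 in Tnfr1-/- colons and 1.22 ± 0.872 in WT colons, with limma adjusted p of 0.602, 0.753 and 0.824. These muscle-rich genes stood beside skeletal muscle markers that summed to 10034 in Tnfr1-/- colon 2, against 509 to 2386 in WT colons, and their part was not tested. Hsf1 itself averaged 19.1 ± 0.976 in Tnfr1-/- colons and 18.2 ± 2.09 in WT colons (limma adjusted p = 0.792), and its relative Hsf2 averaged 10.2 ± 0.707 in Tnfr1-/- colons and 9.32 ± 1.33 in WT colons (limma adjusted p = 0.668). Of 5 listed heat shock factors and their binding protein 3 were tested, 2 with a higher and 1 with a lower mean.

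The remaining chaperone lists had medians near 0. They share genes with the HSF1-dependent list: Tcp1 is also in the CCT list, and Hspa4 and Hspa4l are also among the HSP70 and HSP110 relatives. Of 13 tested genes of the CCT chaperonin and prefoldin, 3 had a higher and 10 a lower mean (median -0.02), with Cct3, a CCT subunit, at 131 ± 8.90 in Tnfr1-/- colons and 143 ± 9.38 in WT colons (limma adjusted p = 0.549). Of 16 mitochondrial chaperones and proteases, 6 had a higher and 10 a lower mean (median -0.02), with the protease Clpp at 30.9 ± 1.70 in Tnfr1-/- colons and 35.1 ± 3.16 in WT colons (limma adjusted p = 0.438). Of 19 endoplasmic reticulum genes, 10 had a higher and 9 a lower mean (median 0.00, but 0.08 without WT colon 1 and 0.15 without both WT colons 1 and 2), with the stress-induced factor Ddit3 at 28.4 ± 3.51 in Tnfr1-/- colons and 22.2 ± 3.11 in WT colons (limma adjusted p = 0.394). Of 8 HSP70 and HSP110 relatives, 5 had a higher and 3 a lower mean (median 0.05).

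Immediate early genes, which many cells switch on within minutes of a stimulus, had 6 higher and 12 lower means in Tnfr1-/- colons, with a median log2 difference of -0.16 and a range of -0.95 to 0.27. That median was -0.09 without WT colon 1. The AP-1 factor Jund averaged 78.5 ± 4.00 in Tnfr1-/- colons and 91.8 ± 9.92 in WT colons, Ier2 averaged 49.0 ± 0.876 in Tnfr1-/- colons and 56.5 ± 7.23 in WT colons without overlap, and the phosphatase gene Dusp1 averaged 15.6 ± 1.36 in Tnfr1-/- colons and 19.96 ± 4.53 in WT colons. Their limma adjusted p were 0.398, 0.449 and 0.4996, so none passed.

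**Figure D5:**
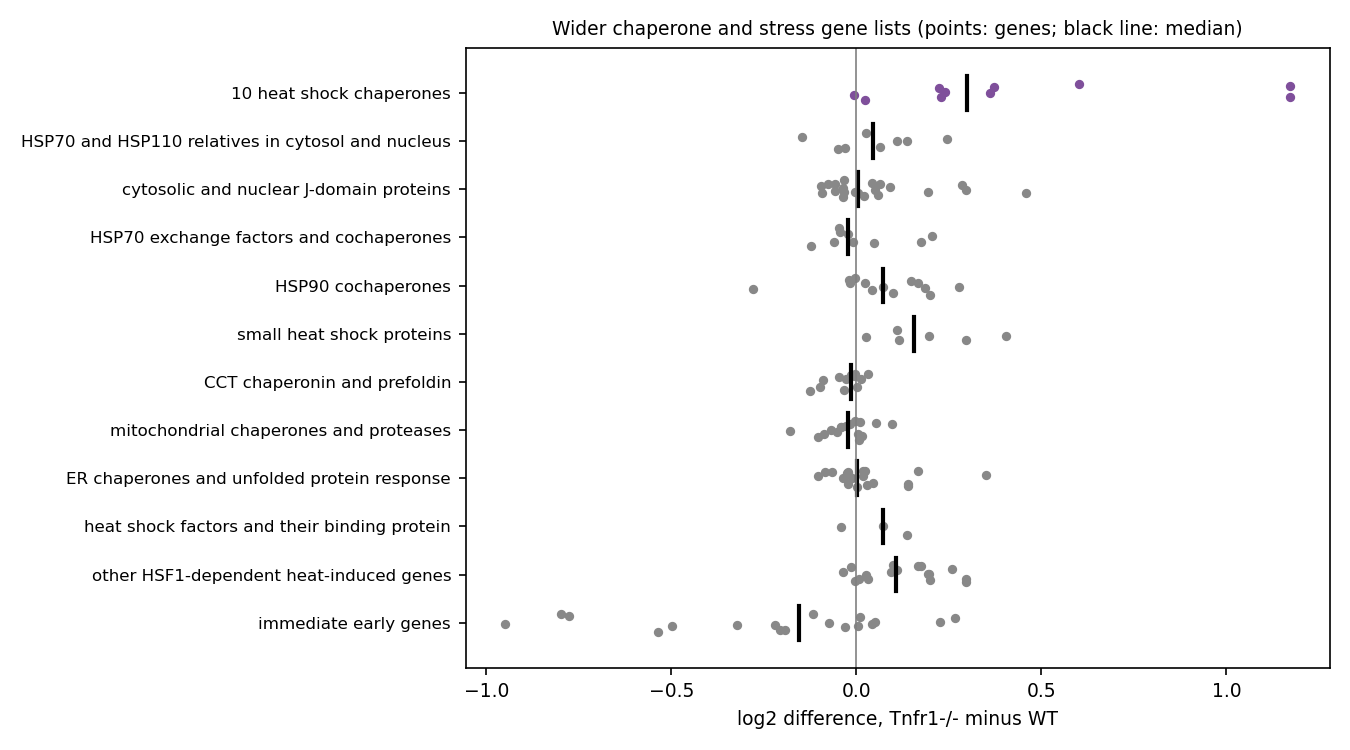
Log2 difference, Tnfr1-/- minus WT, of each tested gene in the 10 heat shock chaperones (purple) and 11 wider lists (grey), with a black line at each median. The chaperones have a median of 0.30 with Hspa1a and Hspa1b at 1.17, other HSF1-dependent genes 0.11, and immediate early genes -0.16.

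Cell make-up was checked on marker sums. Colon epithelium markers summed to between 7704 and 10484 in Tnfr1-/- colons and between 8106 and 13540.5 in WT colons, and smooth muscle markers to between 6654 and 8896 in Tnfr1-/- colons and between 4624 and 12054 in WT colons. Every one of the 13 marker lists, from epithelium to red blood cells, overlapped between genotypes, and no listed marker was at 0 in all libraries. Squamous epithelium overlapped only through Tnfr1-/- colon 5 (351), and the 5 other Tnfr1-/- colons were above the highest WT colon (765). Of the single markers 1 did not overlap: Cdx2, an intestinal transcription factor, was at 55.7 to 92.4 in Tnfr1-/- colons and 102 to 129 in WT colons. Over all genes tested, 0.769% did not overlap in this direction and 0.723% in the other. Skeletal muscle markers summed to 667 to 10034 in Tnfr1-/- colons and 509 to 2386 in WT colons. The part of cell make-up in the chaperone values was not tested. Estimated depth was 35.1 ± 3.70 M reads in Tnfr1-/- libraries and 33.5 ± 5.36 M reads in WT libraries.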

How the data were processed

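RNA was measured in the full-thickness colon of 11 mice. Per the labels' protocols, RNA was extracted with Trizol and a Direct-zol kit and sequenced as stranded mRNA libraries with single-end reads of 75 bases. CASAVA, kallisto and sleuth, without versions, and build mm10 are named in the submitters' processing notes. The authors' deposited table gives a normalized signal for each transcript in each library, which is TPM scaled by a size factor. Its p-value and q-value columns are, per the file headers, the authors' own test and were not used here. Its deposited mean is on the natural log scale of normalized estimated counts and served to estimate depth. Its deposited fold change is a log2 ratio of group means.

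Of 113991 lines, 584 transcripts were repeated with equal values and 1 line of each was kept. The 97 transcripts without a gene (0.031% of abundance) were left out. Values were summed per Ensembl gene. Testing required a value of 1 or more in 5 or more libraries, which left 15079 genes and 33276 transcripts. log2(value + 0.5) was compared with limma 3.58.1 (trended empirical Bayes, two-sided, Benjamini-Hochberg adjustment) in R 4.3.3. The plan named a count test for counts, and the branch for abundances was used. Tables were handled with Python 3.11.15, pandas 2.3.3, numpy 2.4.6, scipy 1.17.1 and matplotlib 3.10.9, and the tests were tested on simulated data.

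Depth was not given as read totals. In each library 55.7% to 58.0% of low values fell within 0.02 of a whole read at the estimated depth, against 1.76% to 2.03% at a typical other one, so depths (27.5 to 42.0 M reads) are approximate and counts were not recovered for a test. Estimated reads per library ran from 552 for Hspa1a to 89895 for Hspa8. The labels call the samples separate mice, and whether they shared litters or batches is not stated in the sources used here.

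The genes and lists were chosen with earlier results of these data known. Genes named beyond the 10 are Tnfrsf1a, up to 3 genes with the smallest p in each list, and the 6 non-member genes most correlated with HSP70 within genotypes. A few of these carry no sentence of their own. Symbols on 2 Ensembl IDs were counted once. Exon positions and transcripts are from GENCODE M21 (96.6% of transcripts matched) and promoters from RefSeq on GRCm38.p6.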

Additional observations from a re-analysis of the deposited data

Results flagged for a closer look

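In 6 of 148 groups of values examined for a single far library, the highest or lowest library stood apart from the rest by the 95% limit of Dixon's test, where chance would give about 7.4. Hspe1 was at 263 in WT replicate 1, and the next WT colon was at 214. Its leading transcript ENSMUST00000075242.6 showed the same, at 263 in WT replicate 1 with the next WT colon at 213. Hspa8 transcript ENSMUST00000117557.7 was at 490 in WT replicate 4, with the next lowest WT colon at 594.

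Tnfr1-/- replicate 2 stood apart in 3 chaperone relatives. Hspa1l was at 2.16 there, with the next Tnfr1-/- colon at 1.72. Dnaja4 was at 8.53 there, with the next Tnfr1-/- colon at 5.99. Hspb3 was at 6.49 there, with the next Tnfr1-/- colon at 2.53. The summed skeletal muscle markers were 10034 in this colon, the highest of all 11, and their part in these values was not tested.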

How the results depend on the processing

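The 10 chaperone genes kept the sign of their log2 difference under all settings tried (pseudocount, filter, normalization, quality weights, replicate block, each colon left out, both WT colons 1 and 2 left out) except Hspd1 and Hspe1, which lie near 0 in the main fit. Hspd1 ran from -0.02 to 0.17 and Hspe1 from -0.04 to 0.08. Over these settings Hspa1a ran from 1.01 to 1.35, Hspa1b from 1.05 to 1.30, Hsph1 from 0.47 to 0.74 and Dnajb1 from 0.32 to 0.44. The count of genes called was 3 with sample quality weights and 2 without WT replicate 1, and it ran from 1 to 2 when each colon was left out. The inducible minus constitutive difference was 0.27 without Hspa1a and Hspa1b and ran from 0.48 to 0.61 with each colon left out. The within-genotype correlation of summed Hspa1a and Hspa1b with Dnajb1 was 0.49 as Spearman's rho. Without the 2 farthest colons it was 0.79 for Dnajb1, 0.83 for Hsph1 and 0.72 for Hsp90aa1. The log2 difference of Cryab was -0.045 without both WT replicates 1 and 2, and at most 0.28 with a colon left out (WT replicate 4). The log2 difference of Hsf1 was -0.0084 with quality weights, -0.047 without both WT replicates 1 and 2, and at most 0.11 with a colon left out (WT replicate 3). The cause of these shifts was not tested. With a pseudocount of 0.1, the log2 difference of ENSMUST00000134967.1 was 3.40 and that of ENSMUST00000146770.7 was 1.79, as values near 0 weigh more at a small pseudocount. The median log2 difference of the small heat shock proteins ran from -0.05 to 0.25 over the settings, being 0.02 with quality weights, that of the endoplasmic reticulum genes from -0.05 to 0.15 (0.11 with quality weights), and that of the immediate early genes from -0.20 to -0.09. The median of HSP70 and HSP110 relatives was -0.03 with a filter at 10. No list had a called gene under any of these settings.

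Replicate numbers 1 to 5 occur in both genotypes. Deviations of same-numbered colons from their genotype mean correlated at 0.27, -0.01, 0.38, -0.22 and 0.33, so the numbers are not taken to pair the colons. With the replicate block, in which Tnfr1-/- colon 6 has no partner, 1 gene was called and the log2 difference of Hspa1a was 1.32. Low abundance limits the retained-intron values, several of which lie under 1.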
